A study of Saccharomyces cerevisiae with 12 samples.

Results

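The zinc regulon and the IZH genes of budding yeast were followed in 12 RNA libraries of a wild-type strain and of a mutant without CHO2. The 9 genes are the zinc-sensing activator gene ZAP1 (YJL056C), the zinc transporter genes ZRT1 (YGL255W), ZRT2 (YLR130C) and ZRT3 (YKL175W), the zinc-responsive genes ADH4 (YGL256W) and ZPS1 (YOL154W), and the membrane protein genes IZH1 (YDR492W), IZH2 (YOL002C) and IZH4 (YOL101C). They were selected by systematic name out of 6685 genes listed, and IZH4 was chosen because its response in the mutant had been noticed in these same libraries. The values of IZH4 in any comparison that involves the mutant are therefore given as a description, without a test. All 9 genes passed the filter on low values, as did 6546 of the 6685 listed genes.

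Both strains were CEN.PK of mating type a, and the mutant carried the deletion cho2-delta::KanMX. CHO2 encodes the methyltransferase that begins the conversion of phosphatidylethanolamine to phosphatidylcholine. Each strain gave 2 libraries in YPL, a rich medium with lactate, and 2 libraries at each of 1 h and 3 h after cells were washed and moved to SL, a minimal lactate medium without amino acids. The 6 groups were thus cho2 in YPL, cho2 at 1 h and at 3 h in SL, WT in YPL, and WT at 1 h and at 3 h in SL. The 2 libraries of a group are described as biological replicates, yet no source used here ties them to different cultures, and the spread behind the p-values may be partly or wholly technical. No culture left in YPL was sampled at 1 h or 3 h, so the new medium, the elapsed time and the washing cannot be told apart. Zinc in the media and in the cells was not analysed here. The strains are not the one from which the reference genome was made, and the number of mutant clones is not given in the sources used here.

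Zap1 is a transcriptional activator that is active when cellular zinc is low and that also drives its own gene. It binds the zinc-responsive element, a short palindromic DNA sequence, upstream of genes that bring zinc into the cytoplasm or spare it. Zrt1 and Zrt2 carry zinc across the plasma membrane with high and low affinity, and Zrt3 releases zinc stored in the vacuole. Izh proteins are membrane proteins of the progestin and adipoQ receptor family, named for their implication in zinc homeostasis, and the RNA levels of several of them respond to zinc and to fatty acids.

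The zinc-responsive element is shown first because it is the sequence through which Zap1 is known to act. The genes were listed as known members of the zinc regulon and of the IZH family, so the matches upstream of them are a description and not independent of that choice. The motif searched was ACCTTNAAGGT, an inverted repeat of ACCTT around any 1 base, which reads the same on both strands. It was sought within the 500 bases upstream of each start codon in the R64 reference genome, and sequences are from that RefSeq genome, 5′ to 3′ on the strand of the gene. Capitals mark the 11 bases of the element, and lower case marks 10 flanking bases on each side.
ZRT1, chrVII:20774-20784, plus strand, all positions matched: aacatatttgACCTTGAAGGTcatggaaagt
ZRT1, chrVII:20659-20669, plus strand, T4C: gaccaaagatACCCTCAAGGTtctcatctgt
ZAP1, chrX:333207-333217, minus strand, T4C: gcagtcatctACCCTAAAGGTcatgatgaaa
ZRT2, chrXII:404363-404373, minus strand, T4C: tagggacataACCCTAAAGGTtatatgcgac
ZRT2, chrXII:404314-404324, minus strand, A8G: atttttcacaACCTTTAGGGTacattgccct
ZRT3, chrXI:118638-118648, plus strand, A8G: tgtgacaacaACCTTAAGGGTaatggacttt
ZPS1, chrXV:34329-34339, plus strand, A8G: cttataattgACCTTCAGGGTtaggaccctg
ZPS1, chrXV:34344-34354, plus strand, T4C: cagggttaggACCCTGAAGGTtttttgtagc
IZH1, chrIV:1434507-1434517, plus strand, A8G: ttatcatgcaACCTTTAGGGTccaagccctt

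Substitutions name the motif's base, the position counted from 1 at the 5′ end of the element on the strand of the gene, and the base in the genome. A full match stood in 9 of 6002 windows (0.15%), and ZRT1 was the member among them. With up to 1 different base, 118 of 6002 windows (1.97%) held a match, among them 6 of the 9 members. The windows of ADH4, IZH2 and IZH4 held none with up to 1 or up to 2 different bases, which says only that these letters are not in these windows. All 8 member matches with 1 different base carried either T4C or A8G, which are the same change read on opposite strands. Of 98 distinct matches with 1 different base in all windows, 9 carried this change (9.18%), and 8 of those 9 lay upstream of members. The ZPS1 matches began 329 and 314 bases before the start codon, and those of ZRT2 311 and 262 bases before it. The full match of ZRT1 began 204 bases before the start codon, and the match of ZAP1 144 bases before it. A match is a description of sequence, not evidence of binding.

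**Figure D1:**
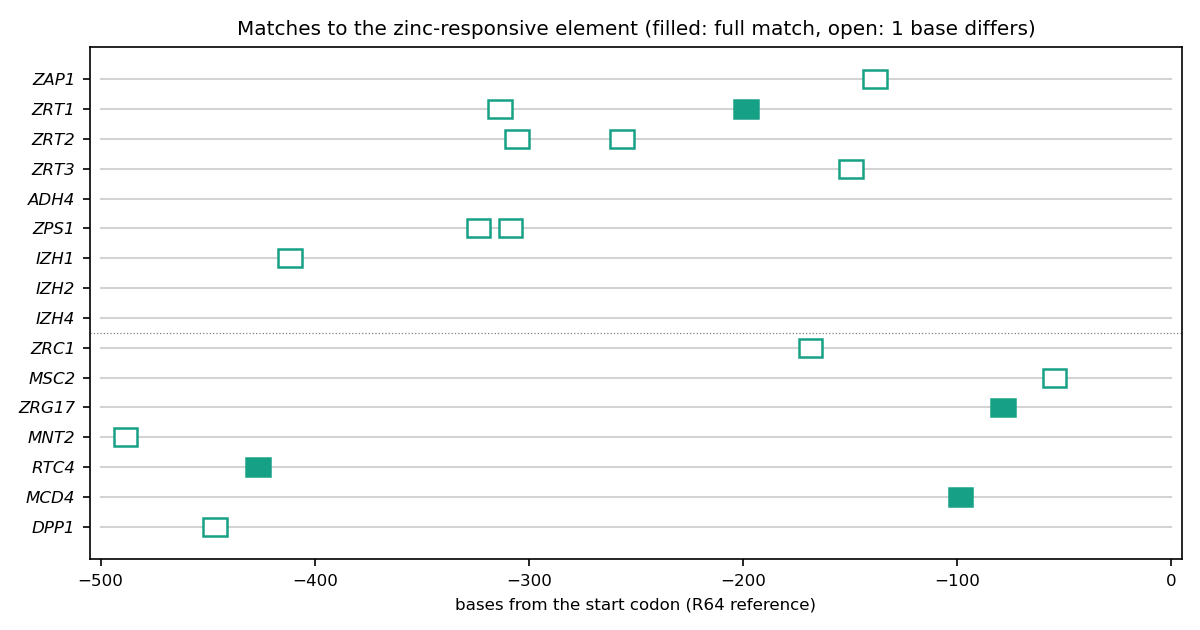
Positions of matches to the zinc-responsive element in the 500 bases upstream of the start codon, for the 9 members above the dotted line and for the other zinc genes that held a match below it; the horizontal axis is in bases from the start codon in R64. Filled boxes are full matches and open boxes differ at 1 base; the rows of ADH4, IZH2 and IZH4 are empty.

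Depth was similar in most libraries, at 9.17 M to 12.5 M recovered reads (M for mega), except in the second WT library at 3 h, which held 3.17 M. CHO2 itself was at 5.26 ± 2.11, 6.98 ± 3.13 and 5.06 ± 1.51 in cho2 in YPL, after 1 h and after 3 h of SL, while WT held 1729 ± 224.3, 3597 ± 662.3 and 2258 ± 348.9 at those times (normalised read count, SD, n = 2 each). One library stood apart in scaling: in cho2 at 3 h, library 2 had its median gene at -0.34 log2 from the mean over libraries, and the other libraries had theirs at -0.07 to 0.17. Between the cho2 libraries at 3 h the members differed by -0.67 (ZRT2) to -0.05 (IZH4) in log2, second minus first, where the median of all genes was -0.38. The part of that shift in the member values at 3 h was not tested. Members were counted with 37 reads (IZH4, second WT library at 3 h) to 2794 reads (ZRT3) in a library.

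Per kilobase of coding length, the vacuolar transporter gene ZRT3 had the highest median of the members over the 12 libraries, at 1355 normalised reads. IZH1 followed at 927.8 per kb, ZRT2 at 472.7 and IZH2 at 440.7. Lower levels were read for ADH4 (312.8), ZPS1 (272.8), ZRT1 (230.9), ZAP1 (175.3) and IZH4 (116). The order differed between groups. At 3 h IZH1 averaged 2027 per kb against 1389 for ZRT3 in cho2, and 1426 against 1416 in WT, and IZH2 averaged 853.1 per kb against 453.2 for ZRT2 in cho2, and 738.4 against 449.1 in WT. Within a gene, the highest library exceeded the lowest by 1.91 (ADH4) to 5.62 fold (IZH4).

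**Figure D2:**
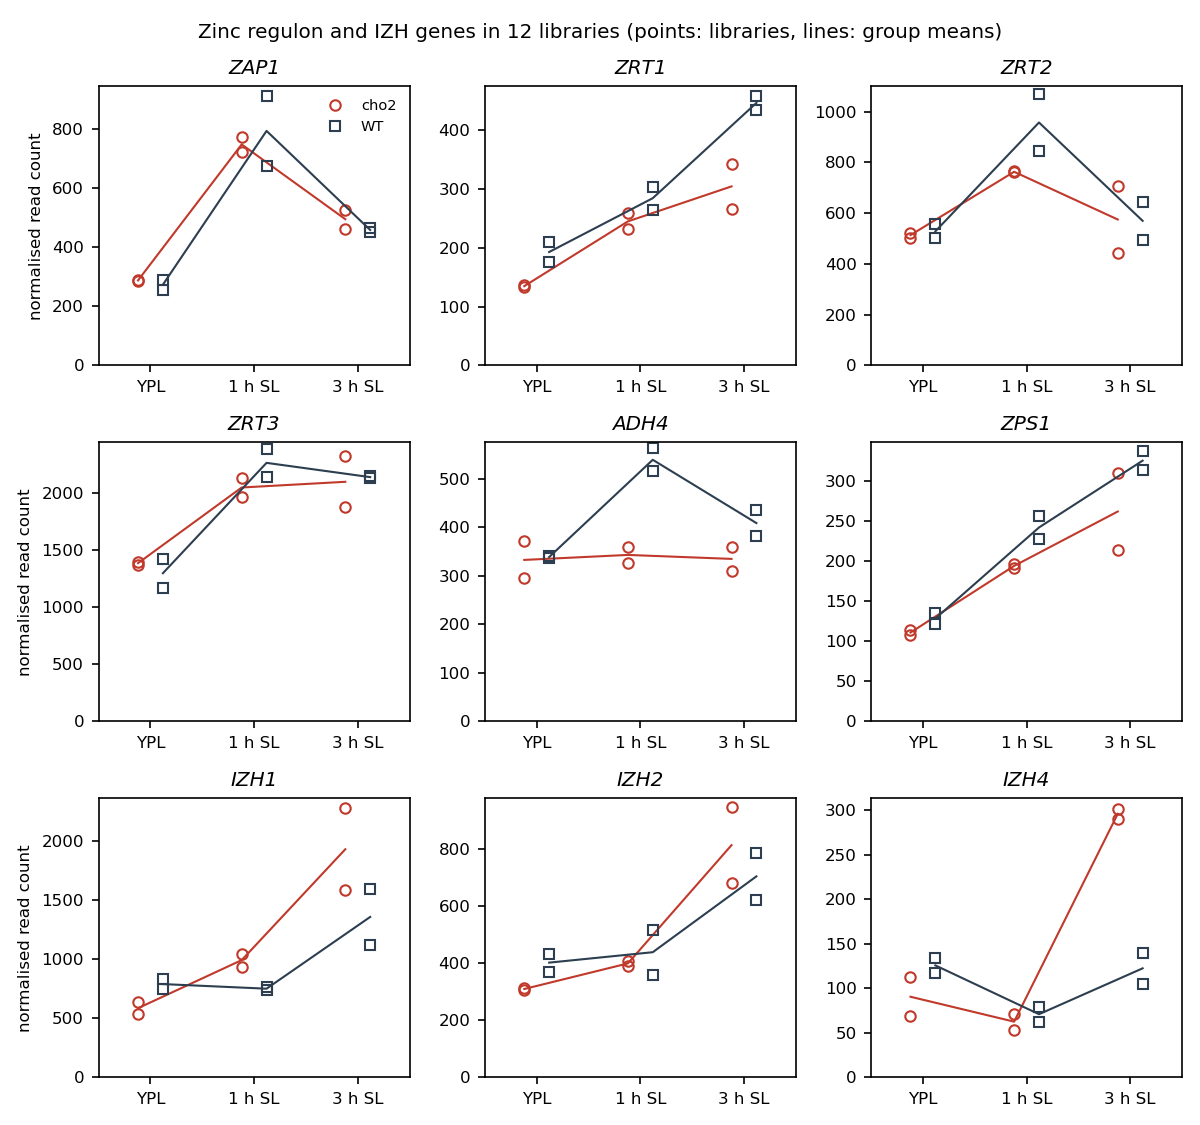
Normalised read count of each member (vertical axis, from 0) in YPL and at 1 h and 3 h in SL; circles are cho2 libraries, squares are WT libraries and lines join group means (n = 2 each). ZAP1 and ZRT2 were highest at 1 h in both strains, ZRT1 and ZPS1 were highest at 3 h in both, and IZH4 was highest in cho2 at 3 h, at 301.4 and 290.7.

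The activator gene ZAP1 rose within 1 h of the switch in both strains and was lower again at 3 h. In cho2 its normalised read counts were 286.6 and 288.1 in YPL, 720.4 and 772.9 at 1 h, and 525.9 and 462.2 at 3 h. In WT they were 255.7 and 290 in YPL, 673.4 and 911.2 at 1 h, and 450.9 and 464.4 at 3 h. In each strain both libraries at 1 h lay above both libraries at 3 h, and these above both in YPL, while at each time the strains overlapped. At 1 h against YPL the log2 difference was 1.37 ± 0.18 in cho2 (SE, limma adjusted p = 8.8e-07, 2.59 fold) and 1.52 ± 0.18 in WT (limma adjusted p = 1.6e-07, 2.87 fold). At 3 h against 1 h ZAP1 fell by 0.60 on the log2 scale in cho2 (limma adjusted p = 0.015) and by 0.77 in WT (limma adjusted p = 0.0019). The fall in cho2 no longer passed with only the 2 groups fitted, or without either cho2 library at 1 h or the second at 3 h (adjusted p = 0.0055 to 0.13 over its alternatives). In WT it did not pass without the second WT library at 1 h (adjusted p = 0.088).

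ZRT1, for the high-affinity zinc transporter, was highest at 3 h in both strains. The cho2 libraries held 135.8 and 133.5 in YPL, 230.9 and 258.1 at 1 h, and 342.3 and 265.5 at 3 h. The WT libraries held 210.2 and 174.8 in YPL, 303.7 and 264.1 at 1 h, and 458.1 and 433.1 at 3 h. Groups within a strain did not overlap. With the deposited scaling both cho2 libraries lay below both WT libraries at every time, but with all libraries the strain difference did not pass limma at any of them. At 1 h the nearest values were 258.1 in cho2 and 264.1 in WT, from libraries that TMM scaling shifted by -0.06 and -0.15 in log2. With these shifts the values change order, so the strains overlap at 1 h under TMM scaling. The share of all genes with such a separation was not computed, for ZRT1 or for any gene below. ZRT1 rose at 1 h against YPL by 0.85 ± 0.20 in cho2 (limma adjusted p = 0.0009) and by 0.56 ± 0.20 in WT (limma adjusted p = 0.019), where the WT call was lost without the first WT library at 1 h or the second in YPL (adjusted p up to 0.16). At 3 h the differences from YPL were 1.16 ± 0.20 in cho2 (limma adjusted p = 2.6e-05) and 1.21 ± 0.20 in WT (limma adjusted p = 1.5e-05). Between 3 h and 1 h the rise of 0.65 ± 0.20 passed in WT (limma adjusted p = 0.013) and the difference of 0.30 ± 0.20 in cho2 did not (limma adjusted p = 0.26), and the strains' difference in this step was not tested. The WT call was lost when WT library 1 of 3 h or library 2 of 1 h was left out (adjusted p up to 0.14), and in cho2 ZRT1 passed with TMM scaling and without both second libraries at 3 h.

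ZPS1, for a cell surface protein that is made when zinc is scarce, moved much as ZRT1 did. The cho2 libraries held 107.5 and 114 in YPL, 191.8 and 196.1 at 1 h, and 310.3 and 213.1 at 3 h. The WT libraries held 135.4 and 121.3 in YPL, 256.1 and 227.4 at 1 h, and 336.9 and 313.4 at 3 h. Values at 3 h lay above those at 1 h and in YPL in each strain. Both cho2 libraries lay below both WT libraries at every time, but with all libraries the strain difference did not pass limma at any of them. How many of all genes were separated in this way was not computed. ZPS1 rose at 3 h against YPL by 1.21 ± 0.21 in cho2 (limma adjusted p = 3.2e-05, 2.31 fold) and by 1.34 ± 0.21 in WT (limma adjusted p = 9.1e-06, 2.52 fold), and at 1 h by 0.80 ± 0.21 in cho2 and 0.91 ± 0.21 in WT (limma adjusted p = 0.0027 and 0.00077).

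ZRT2, for the low-affinity transporter, rose at 1 h in both strains. The cho2 libraries held 503.5 and 523.7 in YPL, 760.4 and 766 at 1 h, and 706.5 and 443.8 at 3 h. The WT libraries held 555.8 and 501.3 in YPL, 844.9 and 1070 at 1 h, and 644 and 495.8 at 3 h. In each strain the 1 h libraries were the highest, and the 3 h libraries were spread around the YPL ones. ZRT2 rose at 1 h against YPL by 0.57 ± 0.20 in cho2 (limma adjusted p = 0.023) and by 0.85 ± 0.20 in WT (limma adjusted p = 0.0011). The cho2 call was lost without any 1 of the 4 libraries compared (adjusted p up to 0.11). At 3 h the differences from YPL were 0.12 ± 0.20 in cho2 and 0.10 ± 0.20 in WT (limma adjusted p = 0.62 and 0.71). Without both second libraries at 3 h, ZRT2 passed as higher in cho2 at 3 h.

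ZRT3, for the transporter that empties zinc from the vacuole, rose by 1 h and was about as high at 3 h. The cho2 libraries held 1372 and 1401 in YPL, 1967 and 2132 at 1 h, and 2325 and 1875 at 3 h. The WT libraries held 1172 and 1425 in YPL, 2144 and 2388 at 1 h, and 2131 and 2151 at 3 h. All SL libraries lay above all YPL libraries, and the strains overlapped in YPL and at 3 h. At 1 h against YPL the difference was 0.56 ± 0.17 in cho2 (limma adjusted p = 0.007) and 0.81 ± 0.17 in WT (limma adjusted p = 0.00023), and at 3 h it was 0.59 ± 0.17 in cho2 and 0.73 ± 0.17 in WT (limma adjusted p = 0.0042 and 0.00073). The 1 h call in cho2 was lost without the first cho2 library in YPL or the second at 1 h (adjusted p up to 0.085).

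ADH4 encodes an alcohol dehydrogenase isoenzyme whose gene is induced when zinc is low. Its cho2 libraries held 371.5 and 294.8 in YPL, 359.7 and 327.1 at 1 h, and 359.2 and 311.1 at 3 h. Its WT libraries held 341.6 and 336.5 in YPL, 562.9 and 516.3 at 1 h, and 436.5 and 381.8 at 3 h. The cho2 groups overlapped at all 3 times, whereas both WT libraries at 1 h lay above every other library of the gene. ADH4 rose at 1 h against YPL by 0.67 ± 0.18 in WT (limma adjusted p = 0.0036), and the difference in cho2 was 0.05 ± 0.18 (limma adjusted p = 0.85). The difference between these changes, -0.62 ± 0.26, did not pass (limma adjusted p = 0.26). ADH4 and ZRT1 follow each other on chromosome VII in the same orientation, with the annotated SUT532 between them on the other strand, and their profiles over the libraries differed (0.49 in log2, the root mean square difference of the centred profiles).

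IZH1 rose in cho2 at both times and in WT at 3 h. The cho2 libraries held 531.8 and 638.6 in YPL, 936 and 1046 at 1 h, and 2274 and 1581 at 3 h. The WT libraries held 748.8 and 828.7 in YPL, 735.4 and 764.2 at 1 h, and 1590 and 1123 at 3 h. Both cho2 libraries lay below both WT libraries in YPL and above them at 1 h, and the strains overlapped at 3 h. How many of all genes were separated in this way was not computed. At 1 h against YPL the difference was 0.76 ± 0.20 in cho2 (limma adjusted p = 0.0022) and -0.07 ± 0.20 in WT (limma adjusted p = 0.77). At 3 h it was 1.70 ± 0.20 in cho2 (limma adjusted p = 7.7e-08, 3.25 fold) and 0.76 ± 0.20 in WT (limma adjusted p = 0.0021, 1.7 fold), and the WT call was lost without the first WT library at 3 h (adjusted p = 0.068).

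IZH2, whose protein is known as the yeast receptor for the plant defence protein osmotin, rose at 3 h in both strains. The cho2 libraries held 312.1 and 307.5 in YPL, 407.4 and 391.4 at 1 h, and 947 and 680.7 at 3 h. The WT libraries held 433.5 and 370.9 in YPL, 517.4 and 359.9 at 1 h, and 787.7 and 621.1 at 3 h. Every 3 h library lay above every earlier library of either strain, and both cho2 libraries were below both WT libraries in YPL. How many of all genes were separated in these ways was not computed. At 3 h against YPL the difference was 1.37 ± 0.20 in cho2 (limma adjusted p = 4e-06, 2.59 fold) and 0.80 ± 0.20 in WT (limma adjusted p = 0.002, 1.74 fold). At 1 h against YPL it was 0.37 ± 0.20 in cho2 and 0.11 ± 0.20 in WT (limma adjusted p = 0.14 and 0.68).

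IZH4 had the lowest median per kb over the 12 libraries and the widest range in fold. In single groups it was not always the lowest, with 315.2 per kb against 186.9 for ZAP1 in cho2 at 3 h, and 134 against 103.2 in WT in YPL. Its cho2 libraries held 68.8 and 112.3 in YPL, 71.6 and 53.6 at 1 h, and 301.4 and 290.7 at 3 h. Its WT libraries held 117.2 and 134.4 in YPL, 79.5 and 62.4 at 1 h, and 139.7 and 105.4 at 3 h. The cho2 libraries at 3 h, with 302 and 427 reads, lay above all other libraries, and the other groups that are neighbours in level overlapped. Since the gene was chosen on the mutant, its differences of 1.74 ± 0.26 at 3 h against YPL and 2.24 ± 0.26 at 3 h against 1 h in cho2 (3.34 and 4.72 fold) are descriptions. In the alternatives run they ranged over 1.39 to 2.09 and over 2.03 to 2.44. The WT libraries also enter the comparisons with the mutant, so the WT values of IZH4 are not fully separate from the choice. In WT, IZH4 was lower at 1 h than in YPL by 0.82 on the log2 scale. The limma call of that fall was lost without the second WT library in YPL or at 1 h. At 3 h against 1 h in WT, IZH4 differed by 0.78 ± 0.26. Both WT differences are given here as descriptions.

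**Figure D3:**
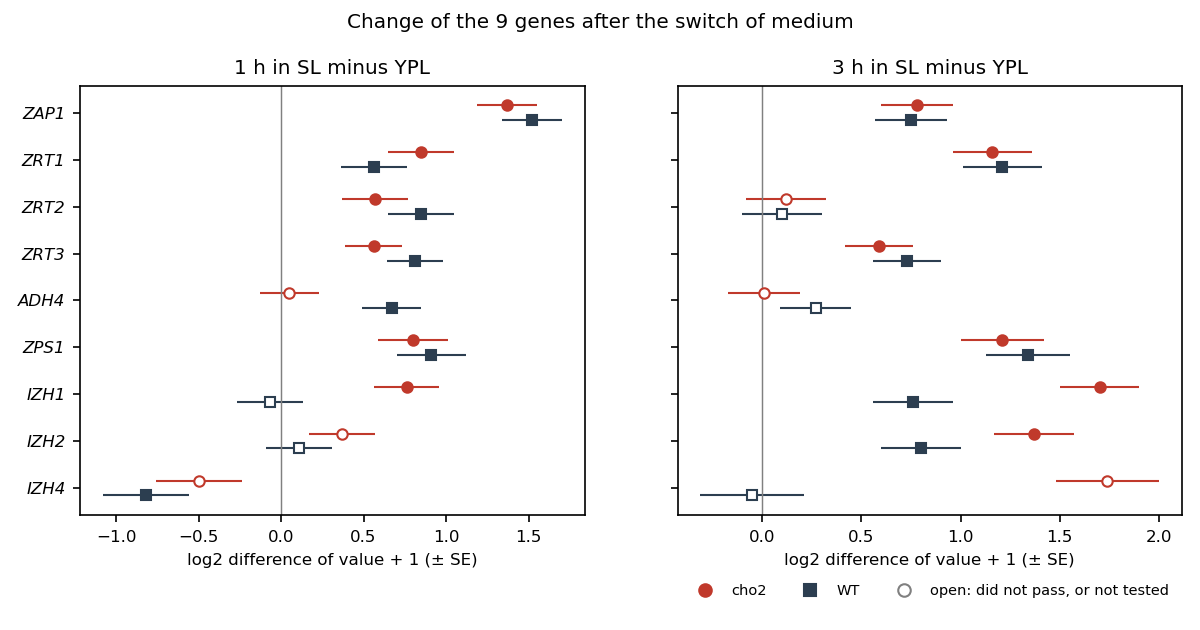
Log2 difference of each member at 1 h (left) and 3 h (right) in SL minus YPL, with bars of 1 SE; circles are cho2, squares are WT, filled symbols passed limma at an adjusted p under 0.05, and open symbols did not pass or, for IZH4 in cho2, were not tested. At 3 h IZH1 lay at 1.70 in cho2 and at 0.76 in WT, while ZAP1 lay at 0.78 in cho2 and at 0.75 in WT.

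Counted over the members, most of them were higher after the switch in both strains. At 1 h against YPL in cho2, 6 of 8 members rose (ZAP1, ZRT1, ZRT2, ZRT3, ZPS1 and IZH1), where 25.2% of all genes tested rose, and 0 fell, where 24.6% of all genes fell. In WT, 6 of the 8 members other than IZH4 rose (ZAP1, ZRT1, ZRT2, ZRT3, ADH4 and ZPS1), against 33.7% of all genes (30.1% with TMM scaling). IZH4 was the 1 member called lower, given as a description, where 23.8% of all genes fell (31.9% with TMM scaling). At 3 h against YPL in cho2, 6 of 8 rose (ZAP1, ZRT1, ZRT3, ZPS1, IZH1 and IZH2), against 19.8% of all genes, and 0 fell, against 37.0% (29.1% and 35.5% with TMM scaling). In WT the same 6 of the 8 members other than IZH4 rose, against 22.9% of all genes, and 0 fell, against 30.8%. In each of the 3 comparisons with 0 falls, edgeR called 6 members in all, DESeq2 called 6, and 6 had a limma p under 0.05 before adjustment. The members' median difference at 3 h was 0.97 in cho2, over the 8 other than IZH4, and 0.75 in WT, over all 9. The medians of all genes were -0.18 and -0.08. The comparisons of 1 h and of 3 h with YPL share the YPL libraries of each strain.

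Between 1 h and 3 h some members rose and others fell, and the falls were no more frequent than among all genes with the deposited scaling. In cho2, IZH2 (1.01 ± 0.20, limma adjusted p = 0.00052) and IZH1 (0.94 ± 0.20, limma adjusted p = 0.00066) rose and ZAP1 fell, so that 2 of 8 rose against 7.99% of all genes and 1 fell against 23.8% (19.9% and 19.8% with TMM scaling). With TMM scaling 5 of the 8 members passed, as they did without both second libraries at 3 h. In WT, IZH1, IZH2 and ZRT1 passed as higher among the 8 members other than IZH4, where 11.1% of all genes did. ZAP1 and ZRT2 fell, 2 of these 8 members, near the share of 25.5% of all genes. With TMM scaling the shares of all genes that rose and fell were 20.9% and 19.8%. IZH4 was also higher, given as a description because its WT values at 3 h entered the comparison it was chosen on. The WT count of 6 for this step includes IZH4. So do its counts under other settings and the 35 passed differences given below. Leaving out WT library 1 of 3 h lowered the WT count of 6 to 2, and leaving out library 2 of 1 h lowered it to 1.

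Between the strains few differences passed. In YPL limma called 0 of 8 members and 0.412% of all genes. Before adjustment 2 members had p under 0.05, and edgeR called 0 and DESeq2 called 0, the last without an adjusted p for 6. The largest of these differences, cho2 minus WT, were -0.51 ± 0.20 for ZRT1 and -0.43 ± 0.20 for IZH1 (limma adjusted p = 0.55 and 0.66). At 1 h 1 of 8 passed, where 9.23% of all genes did. It was ADH4, at 343.4 ± 23.1 in cho2 and 539.6 ± 32.9 in WT (SD, n = 2 each), lower in cho2 by 0.65 ± 0.18 on the log2 scale (limma adjusted p = 0.027). Both cho2 libraries lay below both WT libraries, but the call was lost without any 1 of the 4 libraries at 1 h (adjusted p = 0.0054 to 0.26 over its alternatives). IZH1, at 0.40 ± 0.20, did not pass (limma adjusted p = 0.23), but passed as higher in cho2 with only the 2 groups fitted and without both second libraries at 3 h.

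At 3 h limma called 0 of 8 members and 3.44% of all genes. Before adjustment 2 members had p under 0.05, and edgeR called 0 and DESeq2 called 0. ZRT1 was at -0.56 ± 0.20 and IZH1 at 0.50 ± 0.20, cho2 minus WT (limma adjusted p = 0.13 and 0.17). When cho2 library 1 of 3 h was left out, ZRT1 and ZPS1 passed as lower in cho2, but 1115 of all genes passed in that fit, against 225 with all libraries, and the cho2 library that remained is the one that stood apart in scaling. With TMM scaling the share of all genes that were higher and lower in cho2 was 8.15% and 7.19% at 1 h, against 3.64% and 5.59% with the deposited scaling. At 3 h it was 1.85% and 3.55%, against 0.611% and 2.83%. IZH4 at 3 h differed by 1.28 ± 0.26 (2.43 fold), at 296 ± 7.56 in cho2 and 122.5 ± 24.2 in WT, a value on which the gene was chosen.

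**Figure D4:**
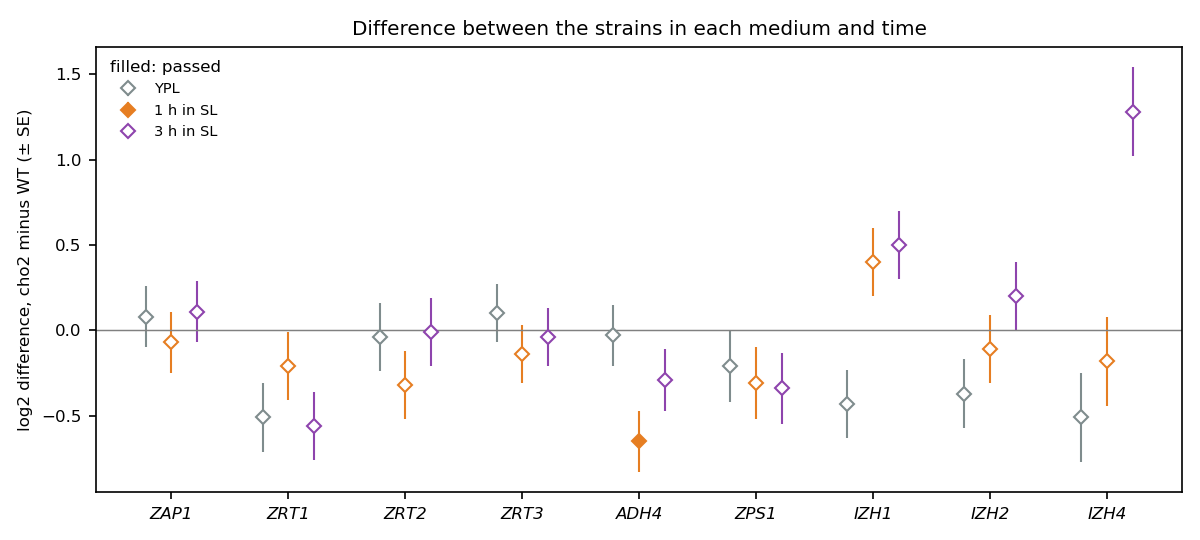
Log2 difference, cho2 minus WT, of each member in YPL and at 1 h and 3 h in SL, with bars of 1 SE; the filled symbol passed limma at an adjusted p under 0.05 and open ones did not pass or, for IZH4, were not tested. ADH4 at 1 h lay at -0.65, ZRT1 lay below 0 at all 3 times, and IZH4 at 3 h lay at 1.28.

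The change after the switch was compared between the strains directly. For the change to 1 h, limma called 0 of 8 members and 3.61% of all genes. Before adjustment 2 members had p under 0.05, and edgeR called 0 and DESeq2 called 0. IZH1 was nearest, with a change larger in cho2 by 0.83 ± 0.28 (limma adjusted p = 0.11), and it passed with TMM scaling, with only the groups of the comparison and without both second libraries at 3 h. For the change to 3 h, limma called 0 of 8 members and 0.703% of all genes (0.0764% higher and 0.626% lower, and 0.245% and 0.703% with TMM scaling). Before adjustment 1 member had p under 0.05, and edgeR called 0 and DESeq2 called 1, without an adjusted p for 6. The member called by DESeq2 was IZH1, at 0.94 ± 0.28 (limma adjusted p = 0.18). For ZAP1 the changes differed between the strains by -0.15 ± 0.26 at 1 h and 0.03 ± 0.26 at 3 h, values that do not show that the changes were alike.

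Genes with the profile most like that of 3 members were sought among 5494 candidates by the root mean square difference of centred log2 values over the 12 libraries, a description in which all genes share the libraries and their scaling. For ZRT1 the nearest was ZPS1, at 0.14, followed by the steryl ester hydrolase gene YEH1 (0.15), the endoplasmic reticulum oxidase gene ERO1 (0.17), the chaperone gene KAR2 (0.20) and the phosphoglucose isomerase gene PGI1 (0.20). ZRT3 stood at rank 357 (0.36) and ZAP1 at rank 1977 (0.57). For IZH2 the nearest were the ergosterol synthesis gene ERG28 (0.15), SPS2 (0.17), the ubiquitin ligase gene SSM4 (0.20), the HMG-CoA reductase gene HMG1 (0.21) and PER33 (0.22), and IZH1 stood at rank 17 (0.24).

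For IZH4 no gene came as near. The closest were the biotin synthase gene BIO2 (0.38), the acetyl-CoA carboxylase gene ACC1 (0.40), the uracil permease gene FUR4 (0.48), EGO4 (0.49) and OLA1 (0.49), with IZH2 and IZH1 at ranks 16 and 17 (0.53 and 0.54). ACC1 averaged 8139, 6250 and 24159 in the cho2 groups ordered by time, compared with 11160, 5295 and 18323 in the WT groups. BIO2 averaged 552.2, 468.3 and 1124 in cho2, against 794.3, 412.4 and 926.4 in WT. IZH4 averaged 90.6, 62.6 and 296 in cho2, against 125.8, 71 and 122.5 in WT. In WT at 3 h the courses parted, with ACC1 and BIO2 above their YPL means and IZH4 at 122.5 against 125.8. EGO4 averaged 768.3, 752.4 and 1761 in the cho2 groups, against 588.7, 585.1 and 727.5 in the WT groups. FUR4 and OLA1 averaged 318.4 and 7041 in cho2 at 3 h, against 313.6 and 7151 in WT. BIO2, ACC1, FUR4, EGO4 and OLA1 were picked here for their likeness to IZH4, over libraries that include the cho2 ones IZH4 was chosen on. The likeness is therefore a description.

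The other zinc genes were 24 genes listed from knowledge of the pathway: 6 transporters, the family member IZH3, 15 further targets of Zap1 and the dehydrogenase genes ADH1 and ADH3. At 1 h against YPL in cho2, 7 of 24 rose and 5 fell, where 25.2% of all genes rose and 24.6% fell. In WT at 1 h, 9 of 24 rose and 4 fell, against 33.7% and 23.8% of all genes. These 1 h counts were near the shares of all genes. At 3 h against YPL in cho2, 8 of 24 rose and 6 fell, against 19.8% and 37.0%. In WT at 3 h, 10 of 24 rose and 5 fell, against 22.9% and 30.8%.

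Among transporters, ZRG17, for a zinc transporter of the endoplasmic reticulum with a full element match, rose at 3 h by 0.58 ± 0.17 in cho2 and 0.81 ± 0.17 in WT. ZRC1 and COT1, for vacuolar zinc importers, passed in neither strain at either time. FET4, for a low-affinity iron transporter that also takes up zinc, fell in cho2 at 1 h and 3 h and did not pass in WT. IZH3, another member of the IZH family, fell at both times in both strains, with 2177 and 2054 in YPL, 927.4 and 1028 at 1 h and 1367 and 1018 at 3 h in cho2, and 2432 and 2543, 1168 and 1154, and 1465 and 1319 in WT at the same times.

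ADH1 and ADH3 are genes that Zap1 is known to repress when zinc is low, and a part of Zap1 in their changes here was not tested. ADH1, for the main zinc-containing alcohol dehydrogenase, was at 15285 and 12358 in YPL, 6280 and 8040 at 1 h and 4504 and 5058 at 3 h in cho2. In WT it was at 17400 and 15946 in YPL, 11006 and 9340 at 1 h and 9137 and 5579 at 3 h. ADH1 and ADH3, for the mitochondrial isoenzyme, fell at both times in both strains, where 23.8% to 37.0% of all genes fell. ADH1 is 88.8% identical to ADH2, so the reads of these genes could have been divided in mapping.

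ATG41, a gene of autophagy and a target of Zap1 earlier called ICY2, showed the widest change of the list. Its cho2 libraries held 307.4 and 330.3 in YPL, 3232 and 3150 at 1 h, and 2194 and 1765 at 3 h. Its WT libraries held 179.9 and 258.7 in YPL, 5529 and 5886 at 1 h, and 2030 and 2168 at 3 h. The groups at 1 h did not overlap, and ATG41 was lower in cho2 by 0.84 ± 0.18 on the log2 scale (limma adjusted p = 0.0037), a call lost without the second cho2 library at 1 h. It was the 1 call among the 24 at 1 h, where 9.23% of all genes passed. At 3 h 2 of the 24 passed, both lower in cho2, where 2.83% of all genes were lower, namely PST1 (-0.73 ± 0.19) and YKE4 (-0.65 ± 0.17), each at a limma adjusted p of 0.037. That count of 2 was 0 with only the 2 groups fitted, 0 when cho2 library 2 or WT library 1 of 3 h, or either cho2 library of 1 h, was left out, 1 without either cho2 library in YPL, and 6 when cho2 library 1 of 3 h was left out, the fit with 1115 calls over all genes. In YPL, where 0.412% of all genes passed, limma called 0 of the 24, edgeR 0 and DESeq2 0, and 2 had p under 0.05 before adjustment.

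Set beside the directions, with no test, the 6 members with a match of up to 1 different base each rose in at least 1 comparison with YPL. Members without such a match rose as well, ADH4 in WT at 1 h and IZH2 at 3 h in both strains, while IZH4 fell in WT at 1 h. A rise in at least 1 comparison thus did not separate the members with a match from those without. Of the 7 other genes with such a match, ZRG17 and RTC4, both with full matches, rose at both times in both strains, MSC2 and DPP1 rose at both times in WT, and DPP1 also at 3 h in cho2. MCD4, for an enzyme of GPI anchor synthesis and also with a full match, fell at both times in both strains, and ZRC1 and MNT2 passed nowhere after the switch. ADH1, ADH3, IZH3, FET4 and ZRG8, which fell in at least 1 comparison with YPL, had no such match. Neither had ATG41, HNT1, EKI1, CKI1, PST1, NRG2, PIS1 and YKE4, which rose in at least 1 of these comparisons.

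**Figure D5:**
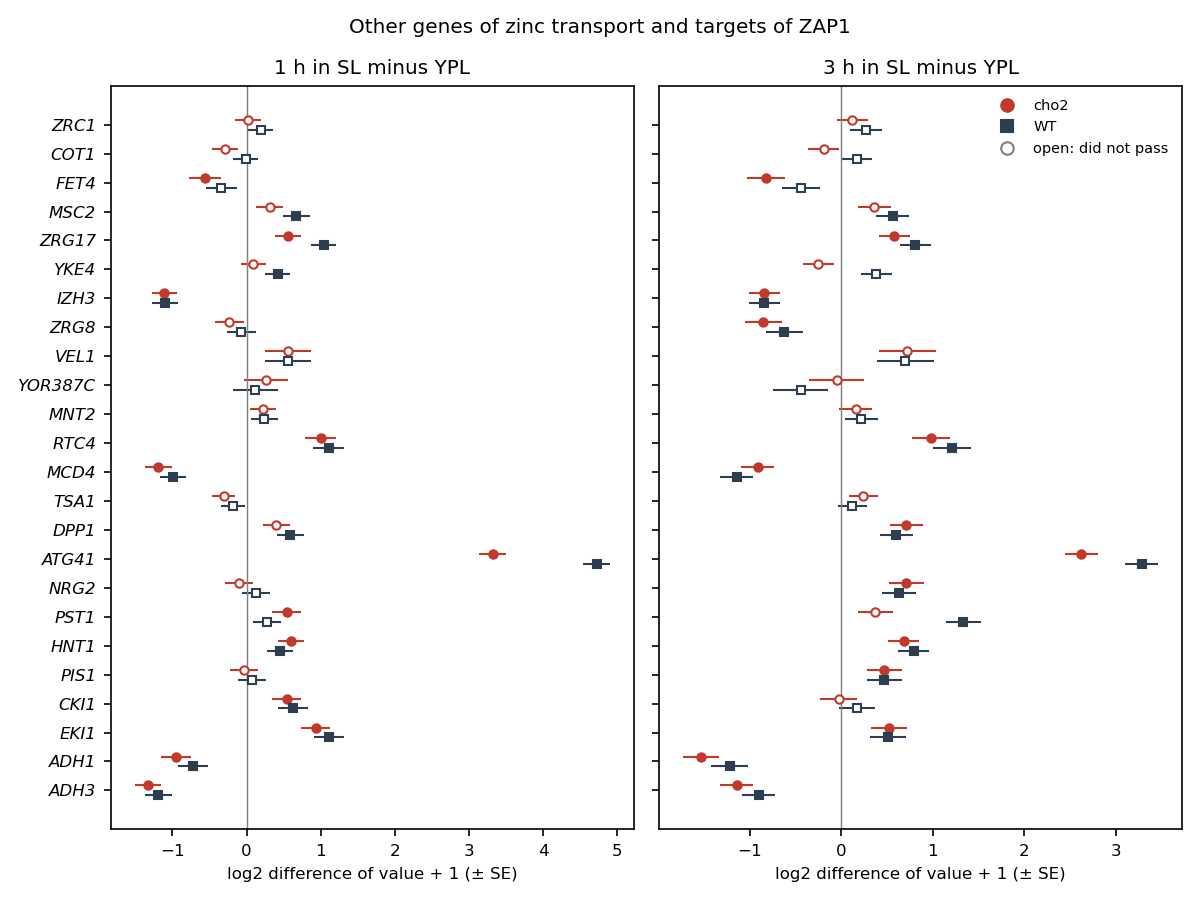
Log2 difference of the 24 other zinc genes at 1 h (left) and 3 h (right) in SL minus YPL, with bars of 1 SE; circles are cho2, squares are WT, and filled symbols passed limma at an adjusted p under 0.05. ATG41 lay highest, at 3.32 in cho2 and 4.72 in WT at 1 h, and ADH1, ADH3, IZH3 and MCD4 lay below 0 in both strains and at both times.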

How the data were processed

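Poly-A RNA of 12 yeast libraries, 2 in each of 6 groups, was turned into strand-specific TruSeq libraries for an Illumina HiSeq 2500 (per the labels' protocols). The authors produced the deposited signal values with Bowtie and DESeq against sacCer2, per the submitters' processing notes. The counting program, its gene models, its handling of strand and all versions are unknown (not given in the sources used here). Within every column, 100% of the deposited values equalled a whole number of steps to within 0.01 reads, which is what gene counts divided by 1 size factor give. The reads recovered in this way came to 3.17 M to 12.5 M a library. Reads that map to more than 1 gene could have been divided or dropped, but no member had a near-identical copy (blastn 2.17.0, 95% identity over 50% of the length) or overlapped an annotated gene. Of the listed names 6006 matched R64 and 679 did not, so overlap with the unmatched ones could not be examined.

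The limma-trend method (limma 3.58.1, R 4.3.3) was run on log2(value + 1). Genes entered when at least 2 libraries reached 10, which left 6546. A single fit gave each group its own mean, with 6 residual degrees of freedom, and 11 contrasts were taken from it. A gene was called where its p, adjusted by Benjamini-Hochberg over all genes of the contrast, was under 0.05. Differences are thus on the log2(value + 1) scale, which understates the change of low genes. The members, the 24 other zinc genes and the tests were chosen with earlier results of these data known. The text names the members, CHO2, genes of the other list and, for ZRT1, IZH2 and IZH4, the 5 genes of most similar profile with a mean of at least 50. Alternatives were a pseudocount of 5, no filter, a filter at 50, TMM scaling (edgeR 4.0.16), only the groups of a contrast, a replicate block, edgeR and DESeq2 1.42.0 on the recovered reads, and a fit without each single library; leaving out both second libraries at 3 h was added after the data were seen. The fit was tested on simulated data. Windows were searched with Python 3.11.15. Reads and alignments were not used here.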

Additional observations from a re-analysis of the deposited data

Results flagged for a closer look

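ATG41 changed to a different extent in the strains in the first hour. Its log2 difference at 1 h in SL against YPL was 3.32 ± 0.18 in cho2 (9.99 fold) and 4.72 ± 0.18 in WT (26.3 fold), and the change was smaller in cho2 by a log2 difference of -1.40 ± 0.25 (limma adjusted p = 0.0014; both cho2 libraries at 1 h below both WT libraries). At 3 h the strains' changes differed by -0.65 ± 0.25, which did not pass (limma adjusted p = 0.4). ATG41 is not among the 9 members. It was the 1 call among the 24 other zinc genes for the change to 1 h, where 3.61% of all genes were called. In YPL both cho2 libraries (307.4 and 330.3) lay above both WT libraries (179.9 and 258.7), a difference that limma did not call. The difference in the change therefore holds the YPL values as well as those at 1 h.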

How the results depend on the processing

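Of 35 differences of single members that passed, each under 21 alternatives, 22 passed in all, 13 lost the call in at least 1 and 0 changed direction. The count of members between the strains at 1 h was 2, ADH4 lower and IZH1 higher in cho2, with only the groups of the contrast and without both second libraries at 3 h, and 0 to 1 with 1 library left out. At 3 h it was 0 to 2 with 1 library left out. In WT at 3 h against 1 h it was 1 to 8 with 1 library left out. In cho2 at 3 h against 1 h it was 5 with TMM scaling and without both second libraries at 3 h. For the strain difference in the change to 1 h it was 1 with TMM scaling, with only the groups and without both second libraries at 3 h, and in the change to 3 h it was 1 in DESeq2. TMM scaling moved the median of all genes by -0.16 in WT at 1 h against YPL, 0.20 in WT and 0.19 in cho2 at 3 h against 1 h, and 0.13 in cho2 at 3 h against YPL, where the members' medians were 0.51, 0.62, 0.36 and 1.10. The WT medians of members include IZH4 and the cho2 ones do not. Over all genes, calls between the strains in YPL numbered 27, with 59 in DESeq2, 46 without both second libraries at 3 h and 11 without the second cho2 library in YPL. At 1 h they numbered 604, and 1003 with TMM scaling, 1392 with only the groups, 1370 without both second libraries at 3 h, and 192 to 1013 with 1 library left out. At 3 h they numbered 225, and 353 with TMM scaling, 38 with only the groups, 341 in DESeq2, and 128 to 1115 with 1 library left out. For the strain difference in the change to 1 h they numbered 236, and 418 with TMM scaling, 581 with only the groups, 582 without both second libraries at 3 h and 97 to 419 with 1 library left out, and for that to 3 h 46, and 108 in DESeq2 and 30 to 164 with 1 library left out. At 3 h against 1 h they numbered 2397 in WT, and 1355 without the second library at 1 h, and 2078 in cho2, and 1221 and 1267 without the first or the second library at 1 h. The causes were not tested. The deviations of same-numbered libraries correlated at r = -0.20 to 0.54 over 15 group pairs, with 6 over 0.1 that include all 3 pairs of WT groups. Since not every pair passed 0.1, the numbers are not taken to pair samples. With the replicate block, the members that passed numbered 0, 1 and 0 between the strains in YPL, at 1 h and at 3 h, 7, 6 and 6 in the WT comparisons, 6, 6 and 3 in cho2, and 0 and 0 for the strain differences in the change, the same as without the block. IZH4 was counted in the WT comparisons only. The 37 reads of IZH4 in the shallowest library limit the precision of that value.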
